A study of Homo sapiens with 9 samples.

Results

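The edited form of a brain microRNA, miR-376a*G, was set against a control transfection in SW1783, a glioma line of human origin. The comparison used 6 of the 9 arrays of the study, 3 labelled miR-376a*G and 3 labelled miR-control. In both groups a synthetic RNA duplex had been given at 50 nM with Lipofectamine RNAiMAX, and total RNA was taken after 24 h. The remaining 3 arrays carried the unedited form, miR-376a*A, at the same dose and time, and served here to test whether the 2 forms differed. All groups share 1 cell line, the transfection reagent and a duplex RNA. The labels call the arrays of a group biological replicates without saying what separated them, so the p-values measure the spread between these arrays.

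MicroRNAs guide Argonaute proteins to messenger RNAs, mostly through their seed, the bases 2 to 8 at the 5′ end, and a paired messenger RNA is then degraded or translated less. ADAR enzymes can turn an adenosine of a microRNA precursor into inosine, which pairs as guanosine does. Within a seed this gives the microRNA another set of possible targets. The microRNAs of the miR-376 cluster are edited in normal brain, and editing of this kind is known to be reduced in gliomas.

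The 2 forms are shown because a single seed base separates the treatments. The mature sequence of hsa-miR-376a-5p, from RefSeq on GRCh38.p14, lies on the forward strand at chr14:101040788-101040809 and has 22 bases. Capitals mark the seed.

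miR-376a*A: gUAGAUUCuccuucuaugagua

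miR-376a*G: gUGGAUUCuccuucuaugagua

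The second line was made from the first by the substitution A3G, counted from the 5′ end, at the adenosine of the UAG triplet that is known to be edited in this microRNA. The labels do not give the position. In RNA written as DNA letters, a site fully paired with the seed reads GAATCTA for miR-376a*A and GAATCCA for miR-376a*G. Among 2370 mature human microRNA names in the RefSeq table, 1 carried the seed of miR-376a*A, which was this microRNA itself, and 0 carried that of miR-376a*G.

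Each gene was measured by its brightest probe set, and 12505 genes were above the limit on dim signals. Signals below are linear intensities as deposited, in arbitrary units. Differences are on the log2 scale after a constant of 16 was added and the arrays were quantile normalized, so they understate the change of dim genes. A gene is said to have risen or fallen where limma's test gave an adjusted p below 0.05 (Benjamini-Hochberg over all 12505 genes). Control replicate 1 stood apart from the other 8 arrays: its highest rank correlation with any array was 0.941, against 0.969 to 0.970 for the others, and 772 genes differed 2-fold or more between it and the average of the other controls, against 25 between control replicates 2 and 3. Values without that array are therefore given beside the results. The markers VIM, CD44 and CHI3L1 were among the brightest probe sets (percentiles 99.4 to 99.6), while GFAP, the defining astrocyte marker, was at 1.30 to 3.75 signal units and below the limit, as were S100B, AQP4 and OLIG2. Of 16 astrocyte and glioma markers 8 were above the limit. Beside the bright ones these were SOX9 (percentile 91.9), SLC1A3 (76.8), BCAN (63.0), ALDH1L1 (62.5) and SOX2 (50.5). All 11 fibroblast and mesenchymal markers were measured, and their summed signal was 9213 to 13941 in control and 9430 to 9630 with miR-376a*G. Of the immune, endothelial and epithelial markers, 2 of 8, 2 of 8 and 1 of 8 were above the limit.

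With miR-376a*G, 578 genes (4.62%) differed from control, 313 higher (2.50%) and 265 lower (2.12%). Of these, 63 rose (0.504%) and 40 fell (0.320%) at least 2-fold; without control replicate 1, 50 rose (0.400%) and 61 fell (0.488%) by that much. The arrays of the groups did not overlap for any of the 578 genes, against 1527 genes (12.2%) not overlapping upward and 1187 (9.49%) downward among all those tested. Without control replicate 1 the count was 2124 genes (17.0%), 1065 higher (8.52%) and 1059 lower (8.47%), and all 313 and 265 genes were still past the threshold in the same direction. When same-numbered arrays were paired by a replicate block, 360 genes (2.88%) passed, 177 higher (1.42%) and 183 lower (1.46%). For genes named below that lost their call in the paired fit, its adjusted p is given.

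In 78 gene lists, 7 of them of cell markers, which together hold 3364 measured genes, 119 genes rose and 100 fell. Under median centring instead of quantile normalization the split was 105 higher and 56 lower over these lists, and 288 and 162 over all genes. The median log2 difference over all genes tested was 0.01, and 0.02 without control replicate 1. The list counts below stand against shares over all genes of 4.62%, and 17.0% without control replicate 1. The genes past the threshold in the G2/M and DNA replication lists were all higher and those in the lists of hypoxia-inducible genes and of kinesin and dynein motors all lower, while cytosolic ribosomal proteins, interferon-stimulated genes and autophagy genes had 0 members past the threshold (3, 6 and 10 at an unadjusted p under 0.05). The motor list does not hold the kinesin KIF2C, which rose and is in the G2/M list.

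**Figure D1:**
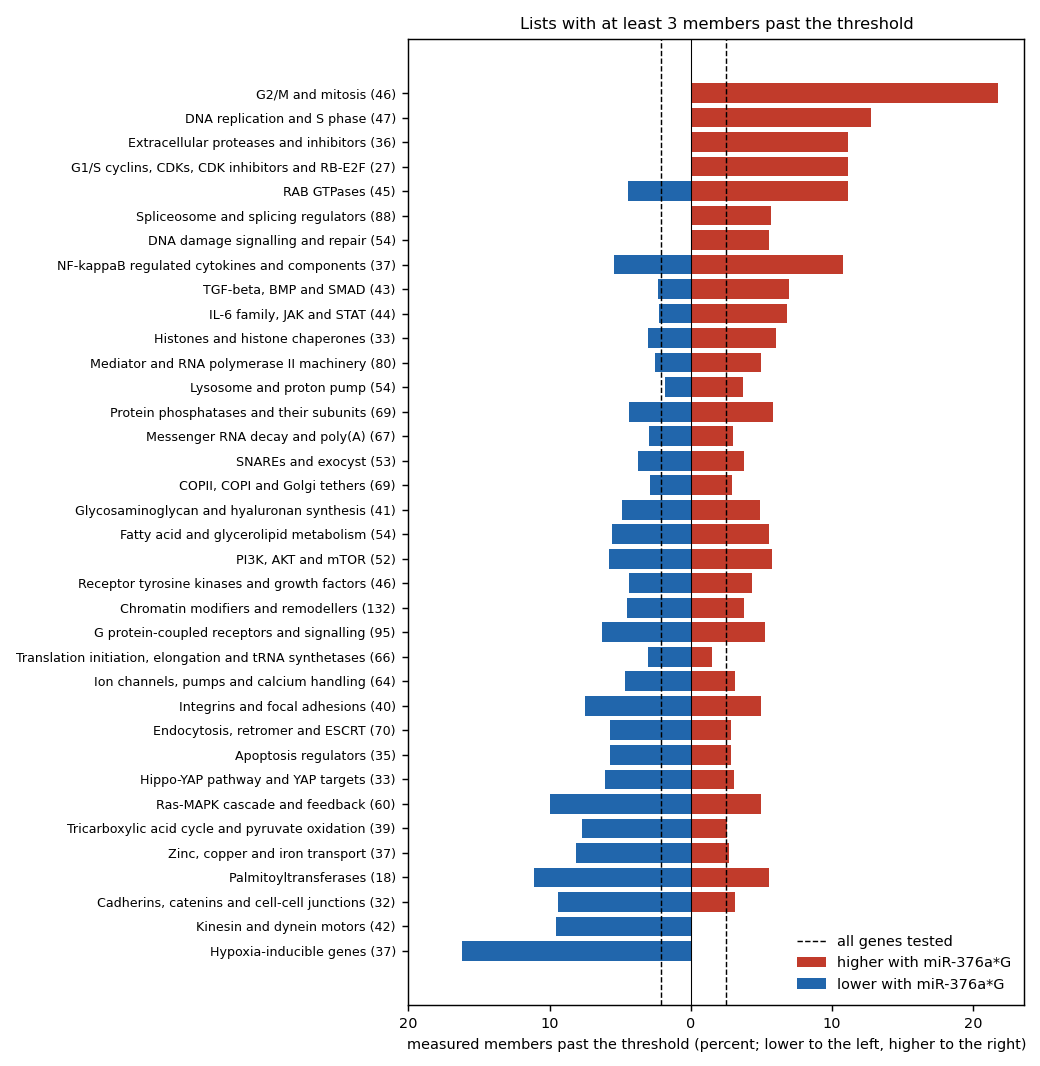
Share of measured members past the threshold for the functional lists reported here with at least 3 such members, in percent, higher with miR-376a*G to the right and lower to the left, with the number of measured members in brackets. Dashed lines mark all genes tested (2.50% higher and 2.12% lower); the G2/M list lies farthest to the right and the hypoxia list farthest to the left.

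Genes of cell division were among those that rose with miR-376a*G. Of 46 measured genes of the G2/M phase and mitosis, 10 rose and 0 fell, with a median log2 difference of 0.34. Without control replicate 1, 27 rose and 0 fell. Against the same controls miR-376a*A had 8 of these genes higher and 0 lower. Between the forms 0 passed, or 5 higher and 0 lower with miR-376a*G when control replicate 1 was left out. CCNA2, the cyclin that drives S phase and entry into mitosis, had signals of 171, 191 and 234 in control and 581, 603 and 614 with miR-376a*G. All 3 treated arrays were far above every control array. The log2 difference was 1.51 ± 0.10 (SE; limma adjusted p = 8.3e-05), and 1.46 without control replicate 1.

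MKI67, the proliferation antigen Ki-67, had signals of 106, 136 and 137 in control and 220, 308 and 291 with miR-376a*G. The lowest treated array, replicate 1, was still well above the highest control. Its log2 difference was 1.00 ± 0.15 (SE), though only 1 of its 3 other probe sets, at 0.58, passed the test. NDC80, part of the kinetochore that binds spindle microtubules, rose by 0.89. CDCA3, a trigger of mitotic entry, rose by 0.69, and BUB1B, a kinase of the spindle checkpoint, rose by 0.62. CCNB2, a mitotic cyclin, and KIF2C, a kinesin that takes microtubules apart at kinetochores, each rose by 0.50. CDCA8 (0.45), PRC1 (0.35) and BIRC5 (0.35), proteins of the chromosomal passenger complex and the central spindle, also passed, but their adjusted p was 0.0574, 0.06 and 0.0809 in the paired fit. CCNB1, the other B-type cyclin, had signals of 1814, 1204 and 1157 in control and 1548, 1473 and 1597 with miR-376a*G. Its control replicate 1 was the highest raw signal of the 6, and its log2 difference was 0.26 (adjusted p = 0.133).

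Mitotic genes are known to share promoter elements, the CCAAT box and the CHR element TTTGAA, and many replication genes carry E2F sites. Promoter windows of 300 bases (250 before and 50 after the start, RefSeq, GRCh38.p14) were at hand for 10180 of the 12505 genes. On either strand, 36.8% of these held CCAAT and 10.2% held TTTGAA. Among 39 of the 46 measured G2/M genes the shares were 76.9% and 69.2%. Of the 9 risen G2/M genes with a window, 6 held CCAAT and 7 held TTTGAA. An E2F set (TTTGGCGC, TTTCCCGC or TTTCGCGC) was in 4.4% of all windows, in 45.2% of those of 42 measured replication genes and in 7.7% of those of the G2/M genes. These matches describe the lists and are not evidence of binding. The 100 bases before the start are shown for the 3 risen G2/M genes with the largest differences among the 4 that held both elements there, with the elements in capitals (CCAAT or its complement ATTGG, and TTTGAA; both elements overlap in MKI67 and CDCA8).

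MKI67, chr10:128126424-128126523, reverse strand: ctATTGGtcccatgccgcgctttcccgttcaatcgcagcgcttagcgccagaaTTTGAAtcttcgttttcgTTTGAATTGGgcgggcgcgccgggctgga

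CCNB2, chr15:59105046-59105145, forward strand: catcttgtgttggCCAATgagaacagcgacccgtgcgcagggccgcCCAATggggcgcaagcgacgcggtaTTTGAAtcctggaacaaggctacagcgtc

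CDCA8, chr1:37692416-37692515, forward strand: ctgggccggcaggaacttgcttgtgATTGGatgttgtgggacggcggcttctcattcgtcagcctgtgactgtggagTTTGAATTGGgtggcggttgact

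Of 47 measured genes of DNA replication, 6 rose and 0 fell, with a median log2 difference of 0.21. Without control replicate 1, 16 rose and 0 fell. With miR-376a*A, 4 were higher than control and 0 lower. Between the forms 0 passed, or 3 higher and 0 lower with miR-376a*G when control replicate 1 was left out. GMNN encodes geminin, which blocks a second round of replication licensing. Its signals were 210, 314 and 312 in control and 633, 627 and 630 with miR-376a*G, so the treated arrays were nearly equal and all far above the controls. The log2 difference was 1.13 ± 0.12 (SE; limma adjusted p = 0.000696). GINS2, a subunit of the replicative helicase, rose by 0.70, although its other probe set gave -0.11. RFC4, of the clamp loader, rose by 0.35. ORC1 (0.62), POLE2 (0.44) and DUT (0.41), an origin binder, a polymerase subunit and the dUTP-removing enzyme, passed with adjusted p of 0.0553, 0.0807 and 0.0515 in the paired fit. The helicase subunits MCM2, MCM3 and MCM4 differed by 0.36, -0.06 and -0.02 and did not pass.

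At the G1 to S transition 3 of 27 genes rose and 0 fell. With miR-376a*A, 5 were higher than control and 1 lower. Between the forms 0 passed, or 3 higher and 2 lower with miR-376a*G when control replicate 1 was left out. CDK6, the kinase that pairs with D-type cyclins, had signals of 84.9, 115 and 131 in control and 267, 282 and 305 with miR-376a*G. The groups were far apart, and the log2 difference was 1.26 ± 0.13 (SE). The 2 other CDK6 probe sets, both at 0.72, also passed. CCNE1, the cyclin of CDK2, rose by 0.72 and the activator E2F2 by 0.81. The D-type cyclins did not pass: CCND1 differed by -0.24 and CCND3 by 0.16. Without control replicate 1 this list had 7 higher and 4 lower members.

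Of 15 genes of the anaphase-promoting complex, the ligase that ends mitosis, 1 fell and 1 rose, and without control replicate 1, 2 fell and 2 rose. CDC26 fell by 1.57 and was also lower than with miR-376a*A. ANAPC13 rose, from signals of 964, 886 and 925 in control to 1493, 1429 and 1526 with miR-376a*G. That difference was 0.71 ± 0.06 (SE; limma adjusted p = 0.000345). In DNA repair 3 of 54 genes rose and 0 fell, and 9 rose and 1 fell without control replicate 1. These shares, 5.56% and 18.5%, were near those over all genes, 4.62% and 17.0%. RAD51C, of homologous recombination, rose by 0.95, with its other probe set at 0.43 and not past the threshold. UNG (0.63) and PARP1 (0.41), of base excision and strand break repair, passed with adjusted p of 0.0705 and 0.104 in the paired fit.

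Among 35 regulators of apoptosis, 2 death receptors fell and BCL2 rose; without control replicate 1, 3 fell and 2 rose. TNFRSF10B, the TRAIL receptor DR5, had signals of 358, 450 and 463 in control, 193, 177 and 200 with miR-376a*G. Every treated array was lower than every control, and the log2 difference was -1.12 ± 0.11 (SE; limma adjusted p = 0.00053). It was also lower than with miR-376a*A (log2 difference -1.31, adjusted p = 0.000245). Its 2 dimmer probe sets, however, gave 0.16 and -0.01. TNFRSF21, the death receptor DR6, fell by 0.73. BCL2, which protects mitochondria from permeabilization, had signals of 23.7, 24.8 and 26.6 in control and 53.4, 55.0 and 76.8 with miR-376a*G. These are dim values, and the log2 difference was 0.97 ± 0.14 (SE), while its other probe set gave -0.16. Of 23 p53 targets 0 rose and 1, TNFRSF10B, fell, but without control replicate 1, 4 rose and 2 fell; CDKN1A, the best known of them, differed by 0.10.

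**Figure D2:**
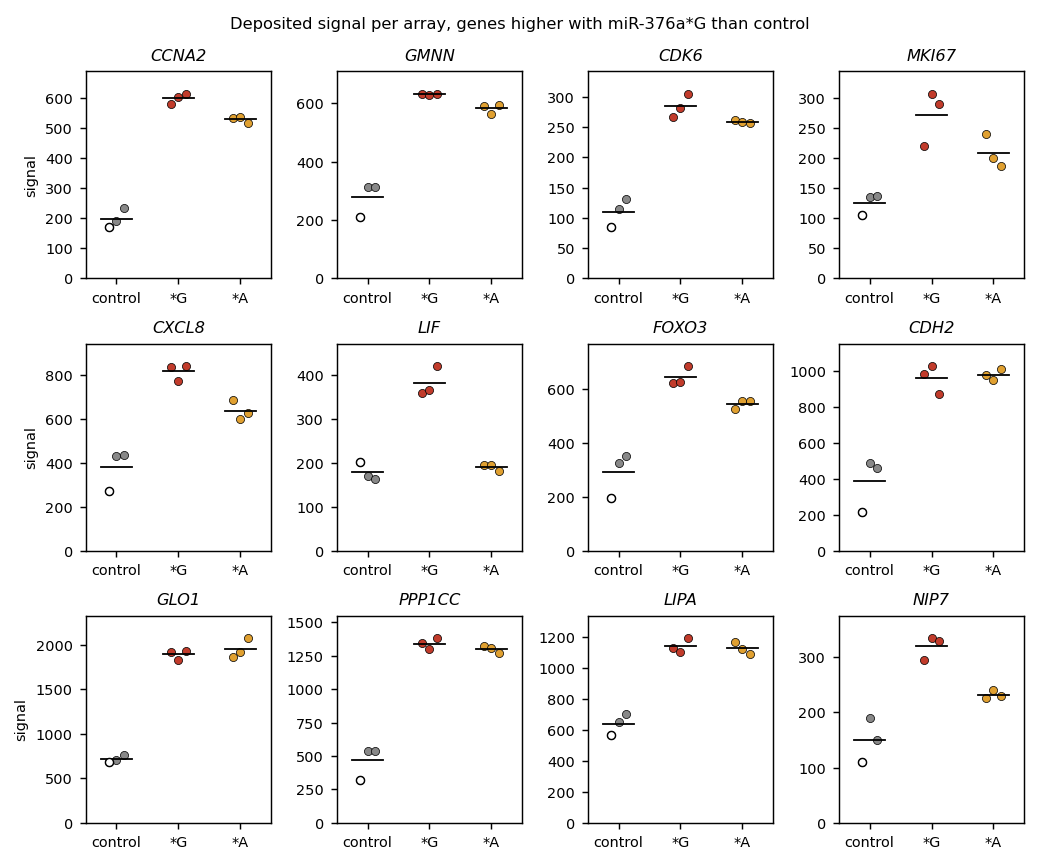
Deposited signal (linear, arbitrary units) on each of the 9 arrays for 12 genes that rose with miR-376a*G; points are arrays, bars are group means and the open circle is control replicate 1. For CCNA2 the treated arrays lie between 581 and 614 and the controls between 171 and 234.

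In the cytoskeleton more motor genes fell than rose. Of 42 kinesin and dynein genes listed as motors 4 fell and 0 rose. The kinesin KIF2C, which rose, is counted in the G2/M list and not in this one. KIF1B, which carries mitochondria and synaptic vesicle precursors along microtubules, had signals of 487, 858 and 816 in control and 315, 362 and 307 with miR-376a*G. Control replicate 1 was the lowest control but still higher than all treated arrays. The log2 difference was -1.11 ± 0.18 (SE; limma adjusted p = 0.00772), -1.36 without control replicate 1, and both other probe sets passed at -0.98 and -0.80. KIF3B (-0.50), of the kinesin-2 motor, and KIF13B (-0.44) had adjusted p of 0.053 and 0.0941 in the paired fit. DYNLRB1, a dynein light chain, fell by 0.48. Without control replicate 1, 10 of these genes fell and 4 rose. CTTN, cortactin, was the 1 gene of 64 actin regulators past the threshold, at -0.40, and its 3 other probe sets lay between -0.28 and -0.04. In this list 11 genes fell and 2 rose without control replicate 1, a share of 20.3% against 17.0% over all genes.

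Adhesion genes moved both ways, and among 40 integrin and focal adhesion genes 3 fell and 2 rose (10 and 5 without control replicate 1). VCL encodes vinculin, which links integrins to actin. It had signals of 1385, 1265 and 1386 in control and 592, 644 and 679 with miR-376a*G. Every treated array was far under the lowest control. The difference was -1.06 ± 0.09 (SE; limma adjusted p = 0.00032), against -0.68 with miR-376a*A. ABL1, the tyrosine kinase, fell by 1.64 and LPP, a zyxin relative, by 0.68, both also lower than with miR-376a*A. PARVA, an integrin-linked adaptor, rose by 0.86, with 6 other probe sets between -0.30 and 0.71, none past the threshold. ITGA2 (0.33) had an adjusted p of 0.06 in the paired fit.

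Of 32 cadherin and junction genes 3 fell and 1 rose (5 and 5 without control replicate 1). CDH2, N-cadherin, had signals of 216, 489 and 460 in control and 986, 1031 and 873 with miR-376a*G. Even the highest control was far under the lowest treated array. The log2 difference was 1.33 ± 0.22 (SE; limma adjusted p = 0.00789), or 1.00 without control replicate 1, and its other probe set also passed at 0.93. KIRREL1, a nephrin family adhesion protein, fell by 1.69, PCDH9, a protocadherin, by 0.75 and CTNNA1, alpha-catenin, by 0.33. KIRREL1 and PCDH9 were also lower than with miR-376a*A; the other PCDH9 probe set gave 0.38.

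Among 42 genes of collagens and their modifying enzymes 1 fell (4 without control replicate 1). COL4A1, a chain of the basement membrane collagen IV, had signals of 1018, 874 and 1047 in control and 471, 512 and 566 with miR-376a*G. The groups did not overlap, the log2 difference was -0.92 ± 0.10 (SE; limma adjusted p = 0.000943) and the other probe set passed at -0.80. COL4A2, its partner chain with which it shares a promoter, had signals of 920, 863 and 925 in control and 938, 1003 and 991 with miR-376a*G, a difference of 0.11 (adjusted p = 0.481). COL1A1 and COL1A2 differed by -0.10 and 0.06. Of 36 extracellular proteases and inhibitors 4 rose and 0 fell, but 5 rose and 5 fell without control replicate 1. The 4 rises were the granzyme B inhibitor SERPINB9 by 1.2, ADAMTS1 by 1.02, urokinase (PLAU) by 0.48 and its receptor PLAUR by 0.36, the last with an adjusted p of 0.101 in the paired fit. SERPINB9's other probe set gave 0.23. Of 50 matrix glycoprotein genes 1 rose and 0 fell (3 and 3 without control replicate 1): CCN2 rose by 0.85, and it was also higher than with miR-376a*A (0.80, adjusted p = 0.00197).

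**Figure D3:**
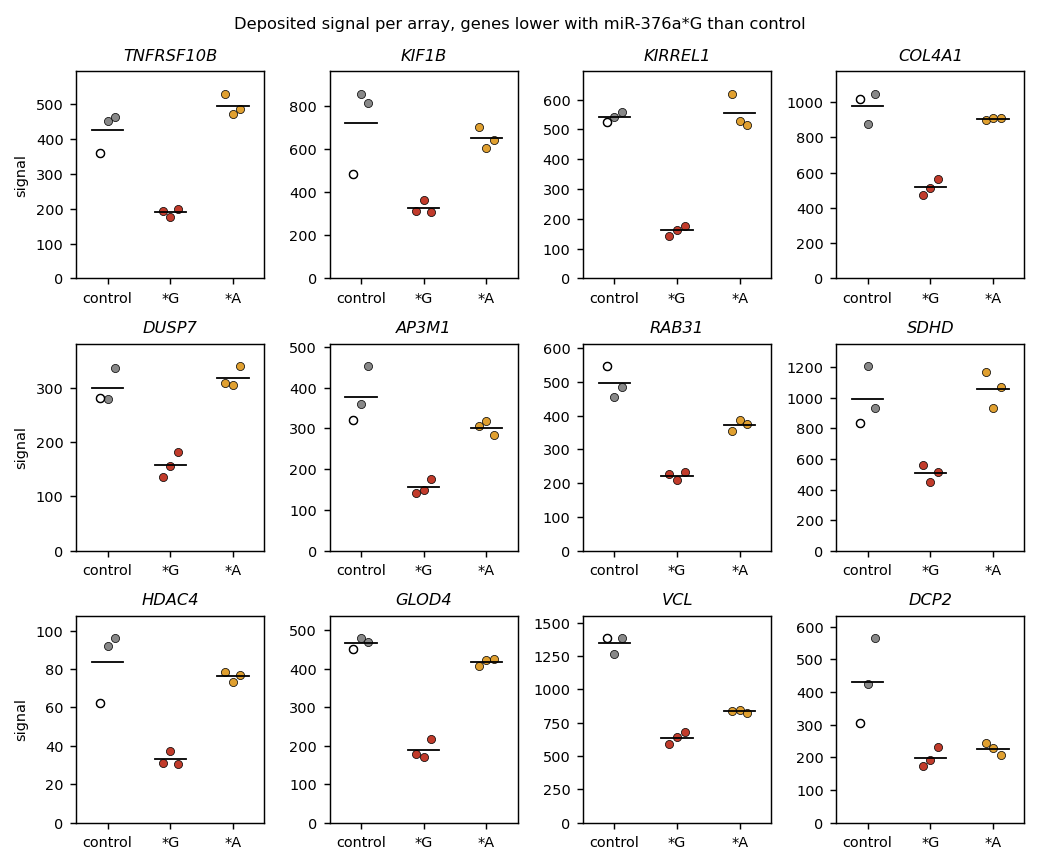
Deposited signal (linear, arbitrary units) on each of the 9 arrays for 12 genes that fell with miR-376a*G; points are arrays, bars are group means and the open circle is control replicate 1. For 10 of the 12 genes all miR-376a*A arrays lie above all miR-376a*G arrays and the forms differ past the threshold; for VCL and DCP2 that test missed the threshold, which VCL passes without control replicate 1.

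Among growth factor genes and receptor tyrosine kinases 2 of 46 fell and 2 rose (5 and 5 without control replicate 1). ROR1, a Wnt-binding receptor, fell by 1.50 and AXL, a receptor of GAS6, by 0.43, although the other AXL probe set gave 0.20. FGF5 (0.93) and PDGFRL (0.90) passed; FGF5 had an adjusted p of 0.053 in the paired fit, and PDGFRL was dim, at 10.3 to 43.4 signal units. In the Ras-MAPK list 6 of 60 genes fell and 3 rose, and without control replicate 1, 10 fell and 13 rose. Phosphatases that switch MAP kinases off were among the falls. DUSP7 had signals of 280, 279 and 336 in control and 136, 155 and 181 with miR-376a*G. Each treated array was well below each control, at a log2 difference of -0.89 ± 0.12 (SE; limma adjusted p = 0.00295). It was also lower than with miR-376a*A (log2 difference -0.95). DUSP14 fell by 0.98. DUSP5 (-0.50), KSR1 (-0.69), the MAP kinase scaffold, MAP4K5 (-0.47) and MAP2K4 (-0.47) had adjusted p of 0.062, 0.062, 0.0773 and 0.0869 in the paired fit. The other family members DUSP1, DUSP4 and DUSP6 differed by 0.15, 0.17 and 0.75 and did not pass, although both dimmer probe sets of DUSP4 (0.56 and 0.79) and of DUSP6 (0.94 and 0.75) did. LAMTOR3, a scaffold on lysosomes, rose by 1.68, MAP3K2 by 1.07 and the small GTPase RAP2B by 0.82.

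Of 52 genes of PI3K, AKT and mTOR signalling 3 rose and 3 fell (7 and 10 without control replicate 1). FOXO3, the transcription factor that AKT keeps out of the nucleus, had signals of 196, 325 and 350 in control and 622, 624 and 685 with miR-376a*G. Control replicate 1 was low, yet the other controls also lay far under the treated arrays. The log2 difference was 1.13 ± 0.16 (SE; limma adjusted p = 0.00309), 0.92 without control replicate 1, and its 3 other probe sets passed at 0.76 to 1.27. PIK3CB, a catalytic subunit of PI3K, fell by 0.65 and PRKAB2, a regulatory subunit of AMPK, by 0.70. DDIT4 (-0.45), which inhibits mTORC1, and AKT1S1 (0.59) had adjusted p of 0.0591 and 0.0817 in the paired fit.

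In the TGF-beta and BMP list 3 of 43 genes rose and 1 fell (6 and 4 without control replicate 1). Both secreted BMP antagonists past the threshold were higher. GREM1, gremlin, had signals of 43.0, 105 and 109 in control and 205, 203 and 220 with miR-376a*G. Control replicate 1 was far under the other controls, and the difference of 1.27 ± 0.26 (SE) became 0.89 without it; the other probe set gave 0.62 and did not pass. NOG, noggin, rose by 0.80 from a dim level, its control arrays lying between 30.6 and 42.2 signal units. TGFBR2 (0.53) had an adjusted p of 0.0515 in the paired fit. ACVR1, the BMP receptor ALK2, fell by 1.46, and by 1.86 without control replicate 1. In the Wnt list 2 of 41 genes fell, ROR1 and PRICKLE2 (-0.63), and 0 rose; without control replicate 1, 6 fell and 2 rose. For the Notch and Hedgehog list limma's count was 0 of 33, with 8 genes at an unadjusted p under 0.05, and 1 rose and 6 fell without control replicate 1. EGR1, an immediate-early transcription factor, rose by 1.50 with signals of 59.8, 157 and 139 in control and 341, 345 and 331 with miR-376a*G; without control replicate 1 the difference was 1.13. FOSL2 (-0.46) had an adjusted p of 0.0585 in the paired fit. In the list of immediate-early factors 1 of 25 genes rose and 1 fell (2 and 4 without control replicate 1).

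In the list of NF-kappaB components and targets 4 of 37 genes rose and 2 fell, and without control replicate 1, 10 rose and 2 fell. CXCL8, the neutrophil chemokine IL-8, had signals of 274, 433 and 438 in control and 838, 773 and 843 with miR-376a*G. The treated arrays were all above the controls by a wide margin. The difference was 1.07 ± 0.14 (SE; limma adjusted p = 0.00249), 0.89 without control replicate 1, and its other probe set passed at 0.86. LIF, a cytokine of the IL-6 family, had signals of 201, 171 and 164 in control and 358, 365 and 421 with miR-376a*G. Control replicate 1 was the highest control here, and the difference was 1.01 ± 0.13 (SE). LIF was also higher than with miR-376a*A, by 0.92 (adjusted p = 0.00355).

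IL11, of the same family, rose by 1.04 but was lower than with miR-376a*A (log2 difference -0.78). PTGS2, cyclooxygenase-2, rose by 1.00 with an adjusted p of 0.0531 in the paired fit; its other probe set passed at 1.10. CSF1, the macrophage growth factor, fell, from 453, 469 and 408 in control to 258, 311 and 271 with miR-376a*G, at a difference of -0.67 ± 0.11 (SE). TNIP1, an inhibitor of NF-kappaB, fell by 0.53. The subunit NFKB1 differed by -0.24 and did not pass. In the IL-6 and JAK list 3 of 44 genes rose and 1 fell, but 4 rose and 8 fell without control replicate 1. PTPN1, a phosphatase that acts on JAK kinases, rose by 1.00, while the feedback inhibitor SOCS3 (-0.66) had an adjusted p of 0.0712 in the paired fit. IL6 and STAT3 differed by 0.09 and 0.07. Of 45 interferon-stimulated genes 0 passed limma's test, with 6 at an unadjusted p under 0.05 and 1 higher and 2 lower without control replicate 1; IFIT1, whose product binds foreign RNA, differed by 0.35 and its groups overlapped.

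**Figure D4:**
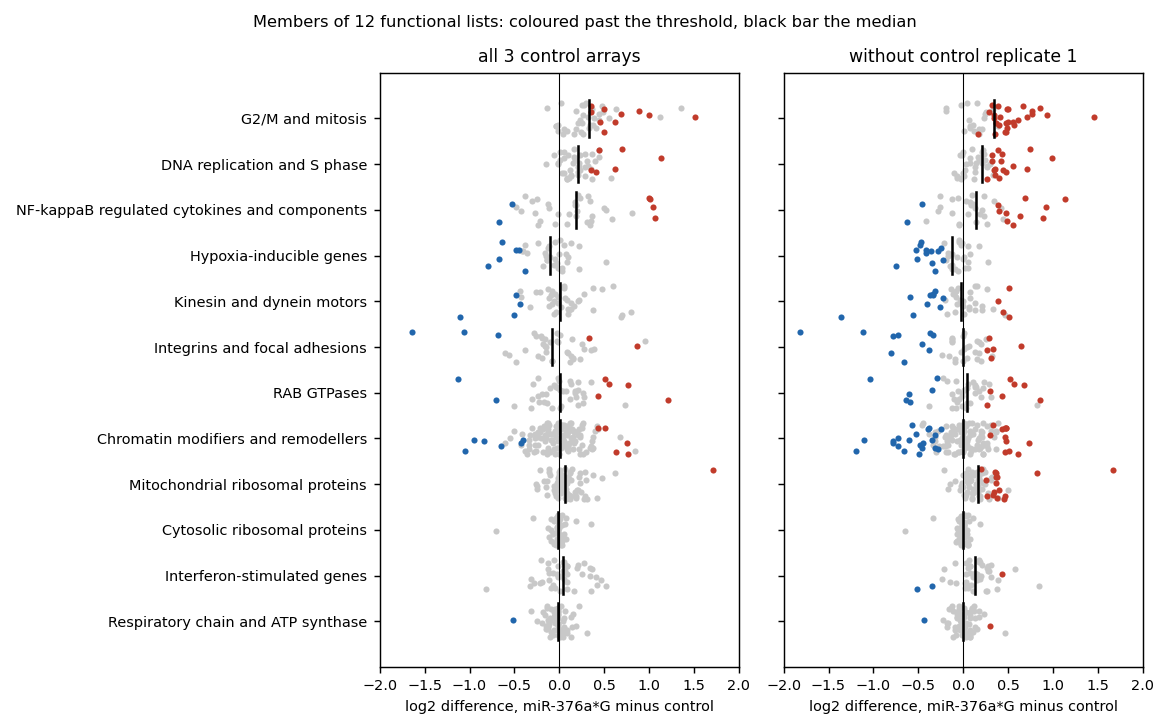
Log2 difference of every measured member of 12 functional lists, miR-376a*G minus control, with all control arrays (left) and without control replicate 1 (right); red and blue points are past the threshold, grey points are not, and black bars are medians. The G2/M median is 0.34 on the left and 0.35 on the right, and no cytosolic ribosomal protein gene is past the threshold in either panel.

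In metabolism the hypoxia list had 6 of 37 genes lower and 0 higher, with a median of -0.10; without control replicate 1, 13 were lower and 0 higher. JMJD6, an oxygen-using hydroxylase, had signals of 664, 608 and 619 in control and 354, 362 and 380 with miR-376a*G. The treated arrays were well under the controls. The difference was -0.79 ± 0.09 (SE; limma adjusted p = 0.00103), with its 2 other probe sets at -0.64 and -0.19 and not past the threshold. ZNF395 fell by 0.48. The remaining 4 lost their call in the paired fit: PFKFB4 (-0.67, adjusted p = 0.0639), a regulator of glycolysis, NDRG1 (-0.64, 0.0604), DDIT4 (-0.45, 0.0591) and the glucose transporter SLC2A1 (-0.38, 0.0818). For NDRG1 control replicate 1 was the highest array, at 1644 against 897 and 992. HIF1A, the oxygen-regulated factor itself, differed by 0.03.

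Among 39 genes of the tricarboxylic acid cycle and pyruvate oxidation 3 fell and 1 rose (7 and 2 without control replicate 1). SDHD, a membrane anchor of succinate dehydrogenase, had signals of 838, 1211 and 931 in control and 561, 448 and 517 with miR-376a*G. The groups did not overlap, and the log2 difference was -0.98 ± 0.15 (SE; limma adjusted p = 0.00449). SDHA and SDHC, other subunits of the enzyme, differed by -0.03 and 0.00. SDHD was also lower than with miR-376a*A (log2 difference -1.04, adjusted p = 0.00418). IDH1 (-0.52), the cytosolic isocitrate dehydrogenase, and CS (0.49), citrate synthase, had adjusted p of 0.0887 and 0.053 in the paired fit, and PDK3 fell by 0.39. In a list of 67 other respiratory chain genes, which does not hold SDHD, NDUFB11 alone passed, at -0.52 (1 rose and 1 fell without control replicate 1). Of 74 mitochondrial ribosomal protein genes MRPS14 alone passed, at 1.71, while 16 rose and 0 fell without control replicate 1. MTFP1 (-0.81), of mitochondrial fission, had an adjusted p of 0.0719 in the paired fit, and SFXN1, the mitochondrial serine carrier, fell by 0.94 although its 2 other probe sets gave -0.23 and 0.35.

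The related genes GLO1 and GLOD4 moved in opposite directions. GLO1, glyoxalase 1, which detoxifies the glycolysis by-product methylglyoxal, had signals of 682, 709 and 766 in control and 1916, 1835 and 1935 with miR-376a*G. These bright, tight values gave 1.44 ± 0.07 (SE; limma adjusted p = 6.65e-06). GLOD4, a protein with glyoxalase domains, had 451, 480 and 470 in control and 179, 172 and 217 with miR-376a*G, a difference of -1.27 ± 0.10 (SE). GLOD4 was lower than with miR-376a*A as well (-1.10, adjusted p = 0.000469), whereas GLO1 differed between the forms by 0.02. Of 43 antioxidant genes the glutathione reductase GSR rose by 0.88 and the heme oxygenase HMOX1 fell by 0.69; without control replicate 1, 3 rose and 5 fell.

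Lipid genes also moved both ways, with 3 of 54 fatty acid and glycerolipid genes higher and 3 lower (5 and 5 without control replicate 1). MTMR6, a phosphatase of phosphoinositides and the largest rise of the comparison, went from 38.5, 138 and 123 in control to 569, 588 and 559 with miR-376a*G. The treated arrays were all several times the brightest control. The difference was 2.53, or 2.03 without control replicate 1. HADH, of mitochondrial beta-oxidation, rose by 0.74. GPAM (0.60), PLPP3 (-0.64), the desaturase SCD (-0.62) and LPIN1 (-0.39) had adjusted p of 0.0745, 0.0798, 0.0779 and 0.113 in the paired fit. In the sterol list INSIG1 and the cholesterol-esterifying SOAT1 fell, by 0.68 and 0.66, and 0 of 29 genes rose; without control replicate 1, 6 fell and 1 rose. SOAT1 fell less than with miR-376a*A, from which it differed by 0.53 (adjusted p = 0.0277). The sphingosine-1-phosphate receptors S1PR2 and S1PR3 rose, by 0.80 and 0.68. In the sphingolipid list 2 of 31 genes rose and 0 fell, but 2 rose and 4 fell without control replicate 1. Of 41 genes of glycosaminoglycan and hyaluronan synthesis 2 fell and 2 rose (5 and 3 without control replicate 1). UGDH, which makes the precursor UDP-glucuronate, fell by 1.10 and the hyaluronan synthase HAS3 by 0.77. NDST1 (0.59), of heparan sulfate, and CHSY3 (0.56), of chondroitin, had adjusted p of 0.0545 and 0.0564 in the paired fit. UGDH also fell with miR-376a*A, by 1.17 (limma adjusted p = 0.0167). Its call with miR-376a*G was lost in 9 of 22 alternative fits, median centring among them. The other probe sets of HAS3 and NDST1 gave -0.25 and -0.43 and did not pass.

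AP-3 is an adaptor that sorts cargo from endosomes to lysosome-related organelles. Its subunit AP3M1 had signals of 320, 361 and 454 in control and 141, 148 and 177 with miR-376a*G. The groups were well apart, and the log2 difference was -1.23 ± 0.13 (SE; limma adjusted p = 0.000696). AP3B1 and AP3D1, the large subunits, also fell, by 0.57 and 0.37; AP3D1 had an adjusted p of 0.0692 in the paired fit. AP3S1 and AP3M2 differed by 0.09 and 0.04. In AP3M1 the miR-376a*A arrays lay between, at -0.33 from control, and the forms differed (-0.90, adjusted p = 0.00475). The other AP3M1 probe set gave -0.30. Over the whole list of 70 endocytosis genes 4 fell and 2 rose (9 and 4 without control replicate 1). CAV2, caveolin-2, rose by 1.59. VPS25 (0.53), of ESCRT-II, and VPS35 (-0.29), of retromer, had adjusted p of 0.0705 and 0.0654 in the paired fit.

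Of 45 RAB GTPases, which mark membrane compartments, 5 rose and 2 fell (7 and 6 without control replicate 1). RAB31 had signals of 548, 455 and 486 in control and 227, 208 and 232 with miR-376a*G. Each treated array was far under the lowest control, the difference was -1.13 ± 0.11 (SE; limma adjusted p = 0.00045), and both other probe sets passed, at -1.16 and -1.03. RAB31 differed between the forms by -0.71 (adjusted p = 0.00676). RAB12 (-0.70) had an adjusted p of 0.053 in the paired fit. RAB7A, of late endosomes, rose by 0.51, RAB36 by 0.76 and RAB40B by 1.21, while RAB14 (0.55) and RAB29 (0.43) had paired values of 0.0515 and 0.0571. RAB5A and RAB11A, of early and recycling endosomes, differed by 0.00 and -0.06.

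Between the endoplasmic reticulum and the Golgi, the SNAREs SEC22B and SEC22C differed from control in opposite directions. SEC22B had signals of 223, 298 and 379 in control and 140, 145 and 163 with miR-376a*G, and fell by 0.94, although its other probe set gave 0.07 and the mean over its probe sets did not pass (adjusted p = 0.293). SEC22C had 151, 189 and 180 in control and 614, 678 and 651 with miR-376a*G, and rose by 1.81. The change of SEC22C was seen in its brightest probe set only; its 5 others lay between -0.17 and 1.04 and did not pass. The third family member, SEC22A, was dim and differed by 0.24. TFG, which organizes exit sites, fell by 0.68 and the cargo receptor TMED5 rose by 1.00. In the list of COPII, COPI and Golgi tethers 2 of 69 genes rose and 2 fell (5 and 9 without control replicate 1). In exocytosis SYT1, the calcium sensor synaptotagmin-1, fell by 1.10 (468, 459 and 593 in control, 226, 194 and 286 with miR-376a*G), and EXOC6 of the exocyst fell by 0.97. The exocyst subunits EXOC1, EXOC2, EXOC3, EXOC4, EXOC5, EXOC7 and EXOC8 did not pass, at -0.13 to 0.19. SNAP25 rose by 0.94, with its 2 other probe sets at 0.14 and 0.47, and VAMP2 (0.54) had an adjusted p of 0.0571 in the paired fit. In the SNARE and exocyst list 2 of 53 genes rose and 2 fell (10 and 9 without control replicate 1). SNAP25, SYT1 and STMN2 (0.62, 0.0773 in the paired fit) are also neuronal markers; of that list 8 of 13 were measured, SYP, NEFM and GAD1 were below the limit, and the summed signal was 3163 to 4357 in control and 2912 to 3183 with miR-376a*G. In the lysosome list 2 of 54 genes rose and 1 fell, with the same counts without control replicate 1. TMEM106B, a lysosomal membrane protein, rose by 2.02 and LIPA, the acid lipase, by 0.83 (569, 648 and 703 in control, 1128, 1103 and 1193 with miR-376a*G). Of 48 autophagy genes 0 passed limma's test, with 10 at an unadjusted p under 0.05, and 5 rose and 3 fell without control replicate 1.

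Of 88 splicing genes 5 rose and 0 fell, with 12 higher and 5 lower without control replicate 1. These shares, 5.68% and 19.3%, were near those over all genes, 4.62% and 17.0%. SNRNP27, of the tri-snRNP, had signals of 421, 538 and 398 in control and 771, 835 and 1023 with miR-376a*G, a rise of 0.92 ± 0.14 (SE). PRPF31, of the same particle, rose by 0.91, the U6-binding LSM3 by 0.89 and the splicing factor SRSF1 by 0.43. The 7 other SRSF1 probe sets lay between -0.6 and 0.71, and 2 of them passed, both higher. HNRNPA3 (0.55) had an adjusted p of 0.0814 in the paired fit. In ribosome biogenesis NIP7 had 110, 189 and 150 in control and 295, 335 and 330 with miR-376a*G. The groups were widely separated, at 1.03 ± 0.15 (SE; limma adjusted p = 0.00347), and its other probe set passed at 0.88. POLR3E, of RNA polymerase III, rose by 0.76, and without control replicate 1, 12 of the 72 genes rose and 1 fell. For the cytosolic ribosomal proteins 0 of 52 passed limma's test, with 3 at an unadjusted p under 0.05, a median of -0.02 and 0 past the threshold without control replicate 1.

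The messenger RNA decay list had 2 of 67 genes higher and 2 lower (5 and 3 without control replicate 1), and both that fell are decapping factors. DCP2, the decapping enzyme, had signals of 305, 424 and 566 in control and 174, 191 and 232 with miR-376a*G. The controls were spread widely but none reached the treated arrays. The log2 difference was -1.07 ± 0.19 (SE; limma adjusted p = 0.00968), although the 2 other probe sets gave -0.54 and 0.12 and did not pass. With miR-376a*A it was -0.88. DCP1A, its activator, fell by 0.57, and its other probe set passed at -0.56. DCP1B differed by -0.31. Of the deadenylase subunits CNOT6 (0.77) had an adjusted p of 0.0545 in the paired fit. ETF1, the translation termination factor, fell by 0.38 and the glycyl-tRNA synthetase GARS1 by 0.50. Among 22 genes of the microRNA pathway and RNA editing 0 passed limma's test, with 4 at an unadjusted p under 0.05: AGO1, AGO2, DICER1 and DROSHA differed by -0.34, 0.39, -0.66 and 0.01, and the editing enzymes ADAR and ADARB1 by -0.21 and 0.17, although a dimmer ADARB1 probe set passed at -0.60. Without control replicate 1, 2 genes of this list were higher and 3 lower. The nucleoporins NUP37 and NUP58 rose by 2.02 and 1.06 among 56 nuclear pore and transport genes (5 rose and 5 fell without control replicate 1), but the other probe sets of both lay between -0.11 and 0.12.

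Chromatin genes were split, with 5 of 132 modifiers and remodellers higher and 6 lower, and 12 higher and 21 lower without control replicate 1. HDAC4, a class II histone deacetylase, had signals of 62.2, 92.1 and 96.2 in control and 31.3, 37.1 and 30.7 with miR-376a*G. All treated arrays were far under the lowest control. The difference was -0.95 ± 0.14 (SE; limma adjusted p = 0.00428), -1.11 without control replicate 1, and its other probe set passed at -0.88. It was also lower than with miR-376a*A (-0.90, adjusted p = 0.00748). HDAC1, HDAC2, HDAC3, HDAC5 and HDAC9 did not pass, at -0.13 to 0.15. SMARCD1, of the BAF remodelling complex, fell by 1.05, and its relatives SMARCD2 and SMARCD3 differed by -0.17 and -0.13. CBX6, of Polycomb complexes, fell by 0.84 and the remodeller CHD6 by 0.65. CBX1, heterochromatin protein 1 beta, had signals of 815, 868 and 801 in control and 1425, 1415 and 1334 with miR-376a*G, a rise of 0.75 ± 0.06 (SE; limma adjusted p = 0.000185). PCGF6 rose by 0.76, and HMGB2 (0.63), a chromatin-bending protein, had an adjusted p of 0.0654 in the paired fit. The histone gene H2BC21 fell by 0.93 and the chaperones HJURP, which deposits the centromeric histone, and ASF1A rose by 0.64 and 0.65.

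In the Mediator and RNA polymerase II list 4 of 80 genes rose and 2 fell (10 and 5 without control replicate 1). CDK8, the kinase of Mediator, had signals of 53.7, 132 and 125 in control and 283, 301 and 283 with miR-376a*G. The other controls also lay far below the treated arrays; the difference was 1.46 with all arrays and 1.10 without control replicate 1, and both other probe sets passed at 1.24 and 1.45. CCNC, its cyclin, and CDK19, its close relative, differed by 0.28 and -0.18. MED14, the backbone subunit of Mediator, fell by 0.80, with its other probe sets at -0.22 and -0.50. TAF9B fell by 0.52, although its 4 other probe sets gave -0.36, -0.36, 0.4 and 0.34 and did not pass. MED13 (0.57), GTF2F2 (0.60) and GTF2E1 (0.46) had adjusted p of 0.0545, 0.0678 and 0.0888 in the paired fit.

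Of 69 protein phosphatases and subunits 4 rose and 3 fell (10 and 10 without control replicate 1). PPP1CC, the gamma catalytic subunit of protein phosphatase 1, had signals of 323, 538 and 538 in control and 1341, 1297 and 1383 with miR-376a*G. Every treated array was far above every control, with a log2 difference of 1.51 ± 0.15 (SE; limma adjusted p = 0.00053). The alpha and beta subunits PPP1CA and PPP1CB differed by 0.13 and -0.37 and did not pass. PABIR2, of a family of protein phosphatase 2A regulators, fell by 1.54, PTPRG by 0.94 and PPP1R3C, a glycogen-targeting subunit, by 0.93. Of 95 genes of G protein-coupled signalling 5 rose and 6 fell (13 and 15 without control replicate 1). PRKACB, a catalytic subunit of protein kinase A, fell by 0.89 and GRK5, a receptor kinase, by 0.84, both also lower than with miR-376a*A; GPR157 fell by 1.44. Among 37 genes of zinc, copper and iron transport 3 fell and 1 rose (5 and 1 without control replicate 1). SLC30A6, a zinc transporter, fell by 1.49, with its other probe sets at -0.23 and -0.64 and not past the threshold, and SLC39A14, an importer of zinc and iron, by 0.70, the latter less than with miR-376a*A (a difference of 0.74 between the forms, adjusted p = 0.00154). SLC30A7 (0.60) and SLC31A2 (-0.42) had adjusted p of 0.0513 and 0.116 in the paired fit. Of 18 palmitoyltransferases 1 rose and 2 fell (2 and 3 without control replicate 1): ZDHHC20 rose by 1.69, while ZDHHC5 and ZDHHC7 fell by 0.85 and 0.63. The other probe sets of ZDHHC20 and ZDHHC5 gave 0.17 and -0.39 and did not pass.

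The rises and falls stood differently against the unedited form. The test of miR-376a*G against miR-376a*A called 329 genes (2.63%), 155 higher (1.24%) and 174 lower (1.39%), and it shares the miR-376a*G arrays with the comparison to control. Of the 265 genes that fell against control, 119 (44.9%) were also lower than with miR-376a*A. Of the 313 that rose, 11 (3.51%) were also higher than with miR-376a*A. With control replicate 1 left out of the fit, 195 (73.6%) of the falls and 47 (15.0%) of the rises differed between the forms in this way. Over all genes tested, that fit had 639 (5.11%) lower and 571 (4.57%) higher than with miR-376a*A. Among the 40 largest falls the forms differed in 33, and among the 40 largest rises in 1, TMEM106B. These counts were 36 and 7 without control replicate 1, the 6 added rises being TMEM64, PLPPR4, EGR1, KLHL8, CEMIP and GREM1. A gene that moved alike with both forms cannot be told apart from one that the control duplex moved, since both are read against the same 3 control arrays.

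**Figure D5:**
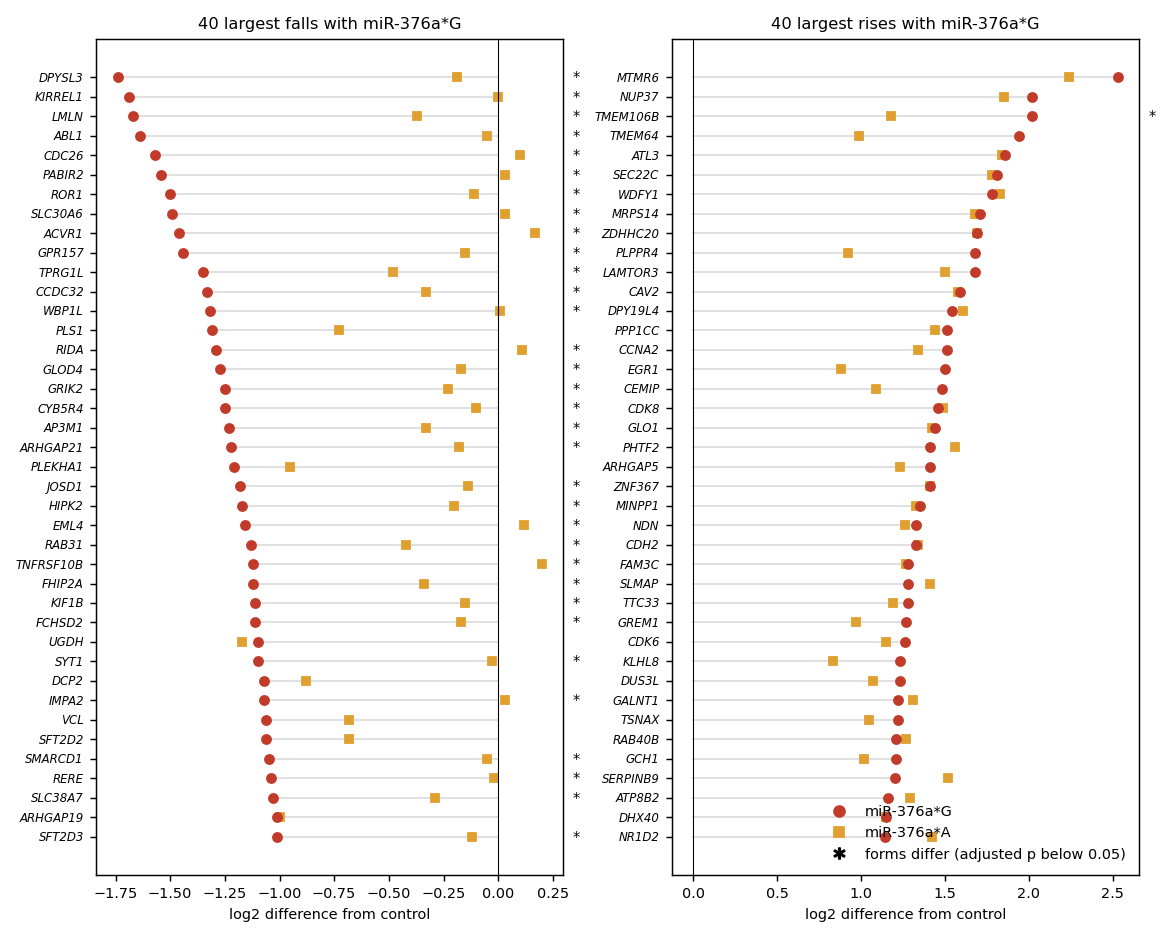
Log2 difference from control of the 40 largest falls (left) and 40 largest rises (right) with miR-376a*G (red circles), beside the values with miR-376a*A (yellow squares), which share the control arrays. Asterisks mark genes with an adjusted p below 0.05 between the forms, 33 on the left and 1 on the right (36 and 7 without control replicate 1).

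Among large falls outside the lists, most also differed between the forms. RIDA, an enamine deaminase, had signals of 452, 435 and 386 in control and 173, 159 and 172 with miR-376a*G, a log2 difference of -1.29, against 0.11 with miR-376a*A. The forms differed by -1.39 (limma adjusted p = 0.00013). EML4, a microtubule-binding protein, had 419, 334 and 392 in control and 159, 160 and 175 with miR-376a*G, or -1.16, against 0.12 with miR-376a*A; 1 of its 6 dimmer probe sets also passed, at -1.07. JOSD1, a deubiquitinase, fell by 1.18, the kinase HIPK2 by 1.17, the corepressor RERE by 1.04, the kainate receptor subunit GRIK2 by 1.25, the reductase CYB5R4 by 1.25 and the inositol monophosphatase IMPA2 by 1.07. With miR-376a*A these 6 genes differed by -0.14, -0.20, -0.02, -0.23, -0.10 and 0.03, and each was lower than with that form. Of 8 other HIPK2 probe sets 3 passed, all lower, while 2, at 0.71 and 0.3, went the other way without passing. Those of GRIK2 gave -0.03 and -0.44, that of CYB5R4 -0.23 and that of RERE -0.36, and none of these passed. By contrast PLS1, an actin bundler, fell by 1.31, and the test between the forms missed the threshold (-0.58), which it passed without control replicate 1.

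For the large rises outside the lists named here the test between the forms missed the threshold, except for CEMIP without control replicate 1. MINPP1, an inositol phosphate phosphatase, had signals of 307, 388 and 435 in control and 1051, 943 and 981 with miR-376a*G, a difference of 1.35, against 1.33 with miR-376a*A. NDN, necdin, had 192, 173 and 129 in control and 469, 421 and 432 with miR-376a*G. It rose by 1.33, against 1.26 with miR-376a*A. GALNT1, which starts mucin-type glycosylation, rose by 1.22, and its 3 other probe sets passed at 1.56 to 2.21. CEMIP, which degrades hyaluronan, rose by 1.48 from dim controls of 29.2, 18.0 and 17.2, GCH1, of tetrahydrobiopterin synthesis, by 1.21 and FAM3C, a secreted protein, by 1.28. With miR-376a*A these 3 genes differed by 1.09, 1.02 and 1.27. ZNF367 (1.41), a zinc finger factor, lost its call in the paired fit (adjusted p = 0.0574).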

How the data were processed

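Total RNA of 9 arrays was measured on an Affymetrix human expression array. The authors deposited 1 linear intensity per probe set and array; the submitters' processing notes name GCOS version 1.4.0.036. How probes were summarised is not given in the sources used here. Names came from the platform annotation: of 54675 probe sets, 41097 had 1 symbol, 1801 several and 11777 none. Intensities became log2(signal + 16) and were quantile normalized (array medians before that were 5.12 to 5.32). Probe sets under the 50th percentile (5.17) were left out, and each gene took its brightest probe set over the 9 arrays, 12505 genes.

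The 3 groups were fitted together in R 4.3.3 with limma 3.58.1 (lmFit, eBayes with an intensity trend), with Benjamini-Hochberg adjustment over all genes and a threshold of 0.05. The script was tested on simulated data. Same-numbered miR-376a*G and control arrays deviated together from their group means (r of 0.156, 0.187 and 0.125, all above a limit of 0.1; 1 of the 6 other pairs, control 3 with miR-376a*G 2, was at 0.140), so a fit that pairs arrays by number was run beside the main one. These correlations are not independent, since the deviations within a group cancel out, and no label names a shared culture or date. The main fit left the numbers out, so its counts ignore any pairing. The number of arrays, 3 a group, limits the precision.

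Genes were named from the 40 largest rises and 40 largest falls with arrays not overlapping, up to 5 members past the threshold per list, and up to 3 members in listed order or the members of 1 complex or family by value. Not all that this rule allows are named. Outside this rule, and after their values were seen, STAT3 and further members past the threshold were named to complete a list: CCNB2, KIF2C, CDCA8, PRC1, BIRC5, RFC4, KSR1, MAP4K5, MAP2K4, TNIP1, LPIN1, VPS35, CHD6, HMGB2 and GTF2E1. One of the 78 gene lists is counted in the totals and not reported here. The members and lists were chosen with earlier results of these data known. Alternatives changed the normalization, constant, filter, probe set rule, arrays fitted, replicate block, trend, array weights and minimum change, and left out each array in turn.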

Additional observations from a re-analysis of the deposited data

Results flagged for a closer look

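Probe sets without a single gene name lay outside the comparisons of genes. Of 3350 such probe sets with no symbol in the annotation used here, 69 (2.06%) were past the threshold between miR-376a*G and control, 35 higher and 34 lower. Of 1092 with several symbols 45 (4.12%) passed, 25 higher and 20 lower. Among 22896 probe sets with 1 symbol the share was 3.61%. These were picked out as signal in data that the gene comparisons did not use.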

How the results depend on the processing

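Counts below are of genes past the threshold, for miR-376a*G against control (578 in the comparison as reported, 219 in the lists) and then against miR-376a*A (329, and 140 in the lists). With only the 6 arrays compared they were 204 (89) and 1292 (434). With the replicate block they were 360 (142) and 223 (97), and with the block and only those 6 arrays 167 (76) and 1004 (343). With arrays weighted by quality they were 2427 (768) and 1656 (545), and with a minimum change of 1.2-fold 174 (76) and 107 (45). Leaving out each array in turn gave 235 to 2124 (104 to 692) and 143 to 1210 (62 to 405), both highest without control replicate 1. Against control, the count was also more than 1.5 times lower without miR-376a*G replicate 1, 2 or 3 (240, 235 and 259) and without miR-376a*A replicate 1 or 2 (385 and 351). Median centring gave 450 (161), 288 higher and 162 lower. The cause of these differences was not tested. No scaling, constant, filter, trend or probe set rule other than these moved a count by more than 1.5 times.

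Of 231 genes past the threshold that the naming rule gives, 0 turned direction under any of 22 alternatives, and 231 kept their call without control replicate 1 and with array weights. The paired fit with the replicate block kept 174 and ended 57; it changed no other call among them. The filter at the 75th percentile left 203 of them, all of which kept their call; the others kept 114 (minimum change) to 230 (constant of 64). Of 143 named genes with another probe set, 31 had all of them past the threshold in the same direction, 85 had none past it and 0 had one past it in the opposite direction. The text gives these other probe sets for only some of the genes, so leaving them out does not mean that they agreed. For 7 named genes the name of the probe set ends in _x_at, a kind that may also bind other transcripts. For 72 more it ends in _s_at, a kind that may match several transcripts, and whether it did was not checked.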
